A study of Homo sapiens with 6 samples.

Results

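The primate-specific miRNA cluster on chromosome 19, called C19MC, and the smaller cluster of miR-371, miR-372 and miR-373 beside it were followed in melanoma cells treated with RSL3 alone or with RSL3 and IFN-γ. Every entry of the table named miR-371 to miR-373, miR-498, miR-512, miR-515 to miR-527, miR-1283 or miR-1323 was taken, by its name alone. The list of names was drawn up with earlier results of these data known. This gave 70 of the 1596 mature miRNAs, of which 65 belong to C19MC and 5 to miR-371 to miR-373. Entries with the same reads in all 6 libraries were counted once, which left 63 distinct members, 58 of them from C19MC. Entries of the same sequence whose reads differed, even slightly, stayed separate members.

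C19MC is an imprinted array of related hairpins that is transcribed mainly from the paternal allele and is best known from the placenta, while miR-371 to miR-373 are typical of embryonic stem cells and germ cell tumours. Both clusters have been found switched on in some other tumours. A miRNA binds its targets chiefly through its seed, so members with the same seed are thought to repress overlapping sets of mRNAs.

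RSL3 is a small molecule that inactivates the glutathione peroxidase GPX4 and so starts ferroptosis, a death by lipid peroxidation, and IFN-γ is a cytokine of activated T cells. Both groups were given RSL3 for 24 hours, and the combined group was given IFN-γ as well, with 3 libraries in each. A group without RSL3 was not analysed here. The sample labels name the cells as A2058 and the text of the paper as A375, both established human melanoma lines, so which line was sequenced, and with it the dose of RSL3, is not known here. The labels name a small RNA kit and the paper a directional RNA kit. No source says that the libraries came from separate cultures, so the p-values measure only the spread between these libraries.

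The 45 C19MC miRNA genes placed in RefSeq (GRCh38.p14) lay on the plus strand within chr19:53666679-53762430, a stretch of 95.8 kb, and the 3 genes of miR-371 to miR-373 lay 25.2 kb further on, at chr19:53787675-53788773. None of the 48 overlapped a protein-coding gene of GENCODE 29. MIR519A2 lay in an exon of a long non-coding RNA on the same strand, and MIR371A and MIR372 lay opposite an exon of another on the other strand. RefSeq gave mature sequences for 67 of the 70 entries, the exceptions being miR-518f-3p, miR-522-3p and miR-527. The 67 entries have 58 different sequences, of which 16, shared by 25 entries, stand at more than 1 place in the clusters.

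The sequences below, 5′ to 3′ with the seed (bases 2 to 8) in capitals, show the seed of miR-372-3p and then the most abundant and most changed members. The first 7 have the seed AAGUGCU, which links miR-372-3p and miR-373-3p to 5 members of C19MC, and the next pair have it shifted by 1 base.
miR-372-3p: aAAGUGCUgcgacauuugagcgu
miR-373-3p: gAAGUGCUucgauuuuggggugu
miR-520a-3p: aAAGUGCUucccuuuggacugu
miR-520b-3p: aAAGUGCUuccuuuuagaggg
miR-520c-3p: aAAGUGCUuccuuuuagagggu
miR-520d-3p: aAAGUGCUucucuuuggugggu
miR-520e-3p: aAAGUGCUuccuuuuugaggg
miR-512-3p: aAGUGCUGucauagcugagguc
miR-520f-3p: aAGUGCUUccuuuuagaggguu

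Another group of 3p arms has seeds with GCGC, among them 3 of the 4 members with the largest increases, and is shown before the most abundant 5p arm, miR-1283 and the 5p arms with the largest decreases.
miR-518a-3p: gAAAGCGCuucccuuugcugga
miR-518b: cAAAGCGCuccccuuuagaggu
miR-518e-3p: aAAGCGCUucccuucagagug
miR-524-3p: gAAGGCGCuucccuuuggagu
miR-498-5p: uUUCAAGCcagggggcguuuuuc
miR-515-5p: uUCUCCAAaagaaagcacuuucug
miR-516b-5p: aUCUGGAGguaagaagcacuuu
miR-1283: uCUACAAAggaaagcgcuuucu

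Near-identical sequences limit which hairpin a read can be traced to. The 5p arms below are the same 22 bases except at base 15 (A15G, counted from 1 at the 5′ end, from miR-518d-5p to miR-519a-5p), and the 2 miR-517 arms differ by C12U from miR-517a-3p to miR-517c-3p.
miR-518d-5p: cUCUAGAGggaagcacuuucug
miR-519a-5p: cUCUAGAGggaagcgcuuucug
miR-517a-3p: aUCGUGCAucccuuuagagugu
miR-517c-3p: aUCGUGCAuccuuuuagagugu

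The sequence shown for miR-518d-5p is also that of miR-520c-5p and miR-526a-5p, and all 3 entries had the same reads. The sequence shown for miR-519a-5p is shared by 6 entries, whose reads were the same in 4, differed by 1 read in 1 library in miR-518e-5p, and were higher in miR-519a-5p (349 against 313 reads in RSL3 replicate 1). miR-517a-3p and miR-517b-3p are one sequence with one set of reads, and so are miR-519a-2-5p and miR-520b-5p. miR-520b-3p lies wholly within miR-520c-3p, and miR-520h within miR-520g-3p. The sources used here do not say how reads that match several entries were shared out, so the host hairpin of these entries is uncertain.

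Libraries held 4897890 to 6513382 reads in the RSL3 group and 4383940 to 5367150 in the combined group. Levels are given as CPM, the reads of a miRNA scaled to a common library size, after TMM scaling, with factors of 0.861 to 0.913 for RSL3 and 0.944 to 1.33 for the combination. Of 6 miRNAs listed as markers of melanoma and melanocytes all were in the table, 4 passed the filter on low counts and 1 of these was called, miR-514a-3p, which was lower in the combined group (log2 fold change -1.38, edgeR quasi-likelihood adjusted p = 0.0374). miR-508-3p had 8, 2 and 7 reads with RSL3 and none with the combination, and miR-509-3p had 11, 3 and 17 reads against 0, 4 and 1. The part of this shift in the results below was not tested. The 6 had a summed level of 86473 to 116406 CPM against 94636 to 148343 CPM, nearly all of it miR-146a-5p, which is not particular to these cells. miR-211-5p, the miRNA of the melanocyte gene TRPM1, had 1210 to 2269 reads per library. Of 5 markers of pluripotent cells miR-367-3p was not in the table and the other 4, the miR-302 3p arms, summed to 0 to 1.75 CPM in the RSL3 group and 0.967 to 3.25 CPM in the combined group. Of 5 markers of blood cells, 3 were tested and none was called, with a sum of 112 to 177 CPM against 99.3 to 363 CPM. miR-122-5p, the hepatocyte miRNA, was at 29.1 to 90.4 CPM and 68.3 to 174 CPM. The part of these other sources in the results was not tested. In bulk RNA, fewer cells with a miRNA and less of it per cell cannot be told apart.

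C19MC was expressed in every library, at a low level. The distinct members took 0.186% to 0.218% of the reads in the RSL3 libraries (0.199% ± 0.0173, SD, n = 3) and 0.199% to 0.272% in the combined libraries (0.231% ± 0.0374, SD, n = 3). The exact 95% interval of a single library was 0.182% to 0.189% at the lowest and 0.268% to 0.277% at the highest, and it covers counting error only. On the TMM scale the order turned: the members summed to 2247 ± 127 CPM with RSL3 and 2030 ± 91.5 CPM with the combination (SD, n = 3), a difference of -0.15 on the log2 scale against 0.22 as a share of all reads. The direction of the summed level thus depended on the scaling. Entries with the same sequence and similar reads, such as miR-518e-5p and miR-519b-5p, each enter these sums. Some reads may therefore be counted more than once.

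Of the 63 distinct members, 4 had a mean of at least 100 CPM, 30 lay between 10 and 100 CPM, 18 between 1 and 10 CPM and 11 below 1 CPM. Reads were found in every library for 52. The filter on low counts kept 44 distinct members (51 entries), at 3.11 to 404 CPM, and the 19 it left out had 2 to 61 reads over all 6 libraries and means of 0.0695 to 1.98 CPM.

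miR-516b-5p was the most abundant member, at 449, 487 and 346 CPM with RSL3 and 491, 307 and 344 CPM with the combination. miR-520a-3p, of the AAGUGCU seed, stood at 129, 258 and 144 CPM against 186, 331 and 250 CPM. miR-512-3p, from the first 2 hairpins of the cluster, stood at 146, 154 and 195 CPM against 175, 214 and 191 CPM. For all 3 the groups overlapped, and RSL3 replicate 2 and combined replicate 2 were the highest of their groups for miR-520a-3p. miR-1283 had 130, 132 and 118 CPM against 138, 78.3 and 102 CPM, again with overlap. These 4 took 36.7% to 43.1% of the members' CPM in the RSL3 libraries and 45.4% to 46.9% in the combined libraries. None of the 4 passed the test (edgeR quasi-likelihood, log2 fold changes of -0.17, 0.53, 0.23 and -0.26, Benjamini-Hochberg adjusted p = 0.711, 0.311, 0.561 and 0.57).

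**Figure D1:**
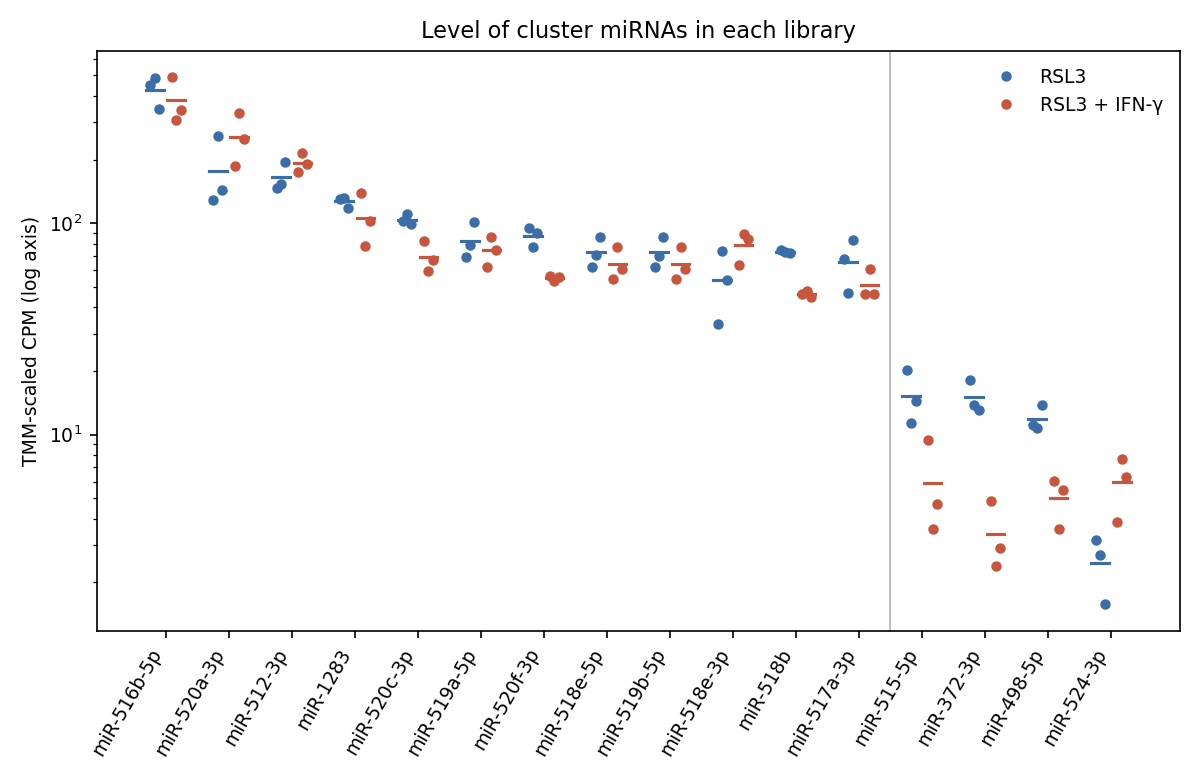
Level of the 12 most abundant distinct members and of 4 further named members in each library, as TMM-scaled CPM on a log axis, with a point per library and a line at the mean of each group of 3. miR-372-3p lies at 13.1 to 18.2 CPM in the RSL3 libraries and at 2.39 to 4.83 CPM in the combined libraries, while miR-516b-5p and miR-520a-3p overlap between the groups.

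The comparison of the groups asked which members changed when IFN-γ was added to RSL3. In the edgeR quasi-likelihood test over 758 entries (Benjamini-Hochberg adjusted p under 0.05), 1 of the 44 distinct tested members was lower in the combined group, miR-372-3p, beside 2.24% of all tested entries. None was higher, beside 2.51% of all tested entries. At an unadjusted p under 0.05, 11 members were lower (13.1% of all tested entries) and 1 was higher (12.8%). The CPM of the groups did not overlap, with the combined group lower, for 13 members (14.8% of all tested entries), and with it higher for 1, miR-524-3p (15%).

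The log2 fold change was below 0 for 32 of the 44 distinct tested members, beside 51.6% of all tested entries. Their median was -0.26 beside -0.04 for all 758 entries, with a range of -2.18 to 1.28. Among the members, miR-518e-5p, miR-519a-5p and miR-519b-5p have the same sequence but count separately. Without combined replicate 1 the median was -0.43. Scaling by library totals alone moved the median of all entries to 0.33 and that of the members to 0.10, and upper-quartile factors moved them to -0.13 and -0.36, so the sign of a small change is that of the scaling. Relative to the median of all entries the members' median was below 0 with each. The 17 tested 5p arms had a median of -0.18 with 14 below 0, the 23 tested 3p arms a median of -0.26 with 15 below 0, and the 4 members named without an arm a median of -0.44. The order of the arms turned with the GC trend removed (5p -0.31, 3p -0.16), with either other filter, and without RSL3 replicate 2, RSL3 replicate 3 or combined replicate 1, where the 5p median was -0.38, -0.32 and -0.43 and the 3p median -0.25, -0.26 and -0.29. Without combined replicate 2 the medians were -0.31 and -0.41, and without RSL3 replicate 1 they were -0.28 and -0.31. No order of the arms is therefore read from them.

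**Figure D2:**
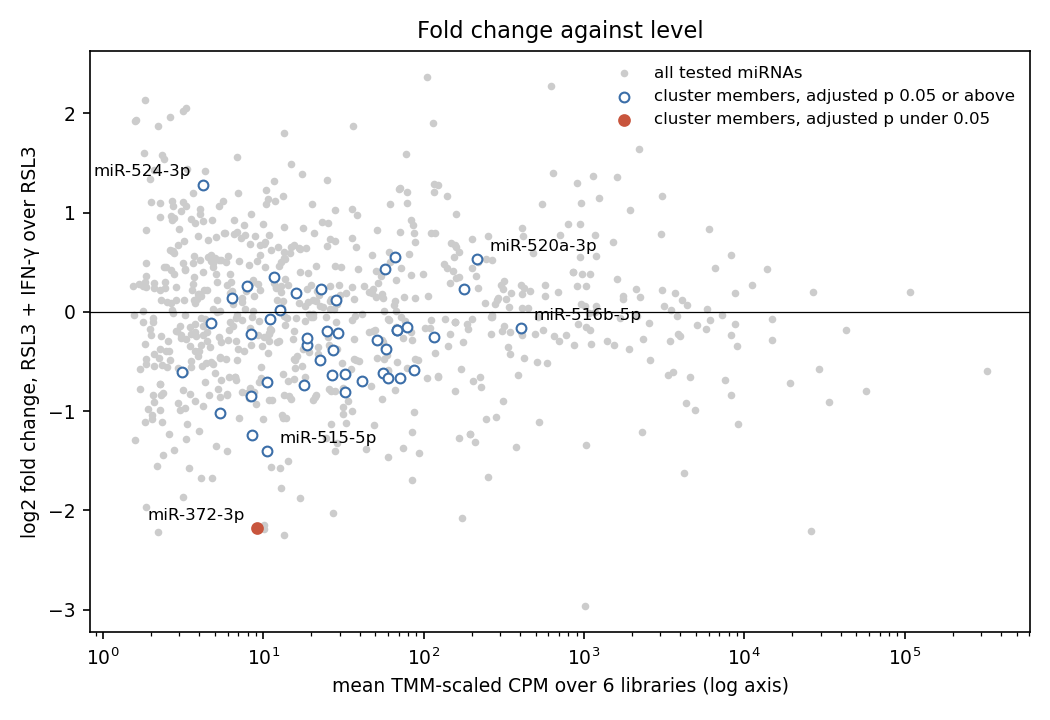
Log2 fold change of RSL3 + IFN-γ over RSL3 against the mean level (TMM-scaled CPM, log axis) for the 758 tested entries in grey, with the distinct members as open blue circles and the called member filled in red. Of the 44 distinct members 32 lie below 0, with miR-372-3p lowest at -2.18 and miR-524-3p highest at 1.28.

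miR-372-3p, a miRNA of embryonic stem cells that has been described as a promoter of the cell cycle, had 92, 62 and 75 reads with RSL3 and 20, 14 and 18 with the combination. On the CPM scale this was 18.2, 13.9 and 13.1 against 4.83, 2.39 and 2.91 (15.1 ± 2.71 and 3.38 ± 1.29, SD, n = 3). Every combined library lay below every RSL3 library. The log2 fold change was -2.18 (SE 0.372, edgeR quasi-likelihood adjusted p = 0.0145). It fell short of the threshold without RSL3 replicate 1 (-2.01, edgeR adjusted p = 0.0985), without combined replicate 2 (-1.99, adjusted p = 0.0515) and without combined replicate 3 (-2.10, adjusted p = 0.0682). Its single place is chr19:53787931-53787953 on the plus strand, in the 3p arm of MIR372.

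The rest of the miR-371 to miR-373 cluster was near the limit of detection. The other arm, miR-372-5p, had 3 reads in RSL3 replicate 3 and none elsewhere. miR-373-3p, which shares the seed of miR-372-3p, had 2, 0 and 0 reads with RSL3 and 7, 3 and 0 with the combination. miR-371a-5p had 2, 3 and 12 reads against 2, 0 and 0, and miR-371a-3p had 0, 0 and 1 against 1, 0 and 0. A count of 0 allows up to 3 reads, so counts this low cannot show that these 4 entries were unchanged. The filter left them out, and without it none passed (edgeR quasi-likelihood adjusted p from 0.373 to 0.996). The cluster summed to 16.5 ± 2.25 CPM and 4.35 ± 2.51 CPM (SD, n = 3), a sum made up mainly of miR-372-3p.

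Within C19MC the largest decreases were those of miR-515-5p, miR-498-5p and miR-519a-3p. miR-515-5p, encoded by the hairpins MIR515-1 and MIR515-2 (chr19:53679016-53679039 and chr19:53685022-53685045), had 20.1, 11.4 and 14.4 CPM with RSL3 and 9.43, 3.59 and 4.68 CPM with the combination. The groups did not overlap, and the log2 fold change was -1.40 (SE 0.414, edgeR quasi-likelihood adjusted p = 0.075). With the replicate number as a block it was -1.44 and passed the test (edgeR adjusted p = 0.032), so that 2 of the 44 members were lower with the block, beside 5.67% of all tested entries, and none was higher, beside 5.15%. With the block and the GC trend removed it did not pass (edgeR adjusted p = 0.113). Without combined replicate 1 it was -1.90 and passed without the block (edgeR adjusted p = 0.0122). With each library left out in turn it ran from -1.90 to -1.15, with edgeR adjusted p up to 0.291. It passed in no other of these fits.

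miR-498-5p, at chr19:53674230-53674252, had 11.1, 10.7 and 13.8 CPM against 6.04, 3.59 and 5.49 CPM, again with no overlap. Its log2 fold change was -1.24 (SE 0.341, edgeR quasi-likelihood adjusted p = 0.0593), and it passed without combined replicate 1 (-1.40, edgeR adjusted p = 0.0375). With each library left out in turn it ran from -1.40 to -1.05, with edgeR adjusted p up to 0.212, and passed in no other of these fits. With the block it fell just short of the threshold (edgeR adjusted p = 0.0506). miR-519a-3p, one of whose hairpins is the last of C19MC, had 5.13, 6.04 and 10.3 CPM against 2.90, 4.61 and 3.07 CPM, with a log2 fold change of -1.02 that did not pass (SE 0.425, edgeR adjusted p = 0.164).

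Among the abundant members, 3 had lower levels in every combined library than in any RSL3 library. miR-518b had 74.6, 73.4 and 71.9 CPM with RSL3 and 46.2, 47.7 and 44.9 CPM with the combination, the closest replicates of these 3. miR-520f-3p had 95.3, 77.2 and 89.8 CPM against 56.1, 53.5 and 55.9 CPM. miR-520c-3p, described as a promoter of cell migration together with miR-373, had 102, 110 and 99.4 CPM against 81.9, 59.6 and 67.0 CPM. Their log2 fold changes of -0.66, -0.67 and -0.58 did not pass (edgeR quasi-likelihood adjusted p = 0.089, 0.0938 and 0.143). Of the rest of the 12 most abundant members, 4 had log2 fold changes of -0.37 (miR-517a-3p), -0.16 (miR-519a-5p), -0.18 (miR-518e-5p) and -0.18 (miR-519b-5p), and the groups overlapped in each. The entries miR-519a-5p, miR-518e-5p and miR-519b-5p share a sequence, so they may hold the same reads.

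Among the members that passed the filter the 4 largest increases were 3p arms. miR-524-3p, at chr19:53711054-53711074, had 3.16, 2.68 and 1.58 CPM against 3.87, 7.69 and 6.30 CPM, from 9 to 45 reads per library. It was the only member with every combined library above every RSL3 library, and its log2 fold change of 1.28 did not pass (SE 0.464, edgeR quasi-likelihood adjusted p = 0.126). miR-518e-3p had 33.3, 74.3 and 54.1 CPM against 63.3, 89.2 and 84.1 CPM (0.55, edgeR adjusted p = 0.28). miR-518a-3p had 40.8, 71.1 and 34.3 CPM against 64.8, 70.4 and 61.2 CPM (0.43, edgeR adjusted p = 0.387). In both, as in miR-520a-3p, RSL3 replicate 2 was the highest of its group and reached into the combined group. Between libraries of the same number miR-520a-3p and miR-518e-3p were higher with the combination in 3 of 3 pairs and miR-518a-3p in 2 of 3, and with the block they did not pass (edgeR adjusted p = 0.111, 0.121 and 0.217). These members were picked for their increases, and the share of all tested entries higher in 3 of 3 pairs was not computed.

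The 67 entries with a sequence held 36 different seeds, 12 of them in at least 2 distinct members. miR-518f-3p (mean of 25.2 CPM), miR-522-3p (32.6 CPM) and miR-527 (1.81 CPM) had no sequence and enter none of the seed sums. The AAGUGCU seed carried 370.6 ± 95.7 CPM with RSL3 and 392 ± 56.3 CPM with the combination (SD, n = 3), summed over 7 members whose tested log2 fold changes ran from -2.18 for miR-372-3p to 0.53 for miR-520a-3p. Fold changes within this seed were thus of both signs, though only that of miR-372-3p passed the test. The summed level differed by less than the spread between replicates. The miR-302 3p arms, which share this seed in stem cells, added 1.77 CPM on average, so C19MC held nearly all of it in these cells. Of the list of 12 miR-302 and miR-367 names 5 were in the table and none was abundant enough to be tested, with sums of 0.224 to 2.80 CPM and 1.93 to 6.30 CPM.

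Other seeds differed in how much of their level the cluster made up. The UCUAGAG seed of the near-identical 5p arms carried 285 ± 38.3 CPM against 245 ± 31.6 CPM (SD, n = 3) in 5 distinct members, with no miRNA from outside the cluster. Of these, miR-518e-5p, miR-519a-5p and miR-519b-5p share a sequence and had similar reads, so the sum may count reads more than once. The AAAGCGC seed, that of miR-518a-3p and miR-518b, carried 160 ± 21.1 CPM against 150 ± 19.3 CPM in 5 members (SD, n = 3). The AAGUGCA seed of the miR-519a, miR-519b and miR-519c 3p arms carried 12.9 ± 2.99 CPM against 6.78 ± 1.67 CPM (SD, n = 3). AAAGUGC, by contrast, is the seed of miR-17-5p and its relatives, oncogenic miRNAs of cycling cells: miR-519d-3p and miR-526b-3p gave 44.0 ± 1.87 CPM against 39.8 ± 6.29 CPM (SD, n = 3), while 6 miRNAs from outside the cluster gave 11704 CPM on average.

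**Figure D3:**
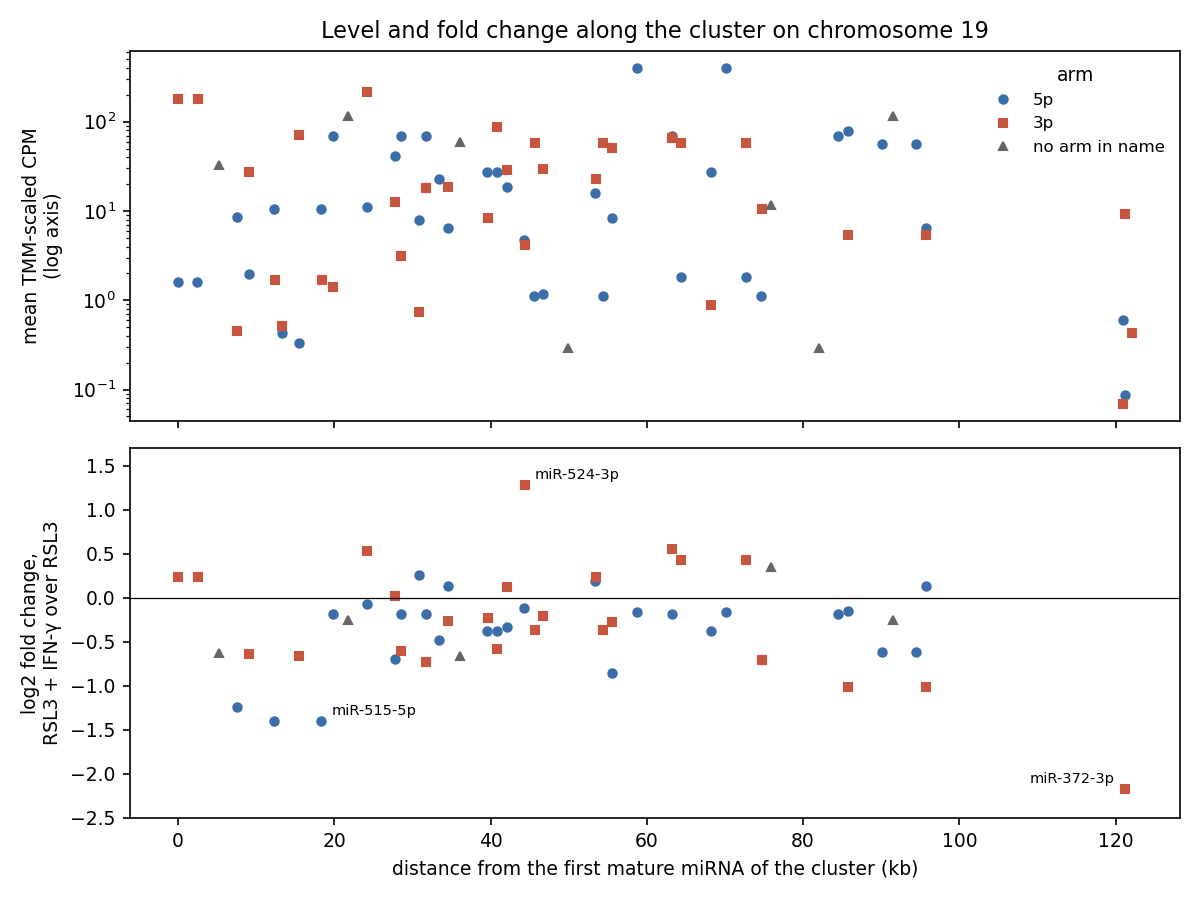
Mean level (TMM-scaled CPM, log axis, top) and log2 fold change of RSL3 + IFN-γ over RSL3 (bottom) of each member by its distance in kb from the first mature miRNA of the cluster, with 5p arms, 3p arms and members named without an arm marked apart. A miRNA with several places appears at each, members that were not tested appear only at the top, and miR-372-3p stands at the far right, beyond the gap.

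Levels differed widely between neighbours along C19MC, and even between arms, as in miR-520f with a mean of 0.334 CPM for the 5p and 71.3 CPM for the 3p arm. The tested members all of whose places lay in the first 20 kb, a limit chosen after the values were seen, were 6, with a median log2 fold change of -0.65 and 5 below 0. The 36 with a place beyond it, miR-372-3p included, had a median of -0.22 and 25 below 0. Both miR-515-5p and miR-498-5p belong to the first set, while miR-512-3p at its very start had a log2 fold change of 0.23. Fold changes of neighbouring hairpins were thus of both signs, though none of these passed the edgeR test without the block. The difference between the stretches was not tested.

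The ratio of the arms of a hairpin within a library does not depend on the scaling between libraries. It was tested with limma for 172 hairpins with enough reads of both arms, 11 of them members. None of the 11 was called in either direction at an adjusted p under 0.05, beside 0% of all hairpins higher and 0% lower, nor was any by edgeR's test of the interaction of arm and treatment. At an unadjusted p under 0.05 none was higher (13.4% of all hairpins) and 1 was lower (5.23%). The 3p arm gained on the 5p arm in 9 of the 11, beside 58.7% of all hairpins, with a median difference of 0.50 on the log2 scale beside 0.17 for all. The median was 0.31 without RSL3 replicate 1, 0.75 without combined replicate 1, and 0.36 to 0.53 without each of the others.

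The dominant arm differed between hairpins that lie side by side. The 3p arm dominated in miR-518a (log2 of 3p over 5p of 6.11 ± 0.577 with RSL3, SD, n = 3), miR-520a (4.02 ± 1.34), miR-520e (3.57 ± 1.31) and miR-520g (2.39 ± 0.323). The 5p arm dominated in miR-519a (-3.56 ± 0.243) and miR-526b (-2.01 ± 0.0552). The dominant arm of these 6 was the same in the combined group. In miR-519a the dominant arm is uncertain, since its 5p sequence is shared by 6 entries. Its 3p arm also comes from MIR519A2, whose 5p entry is miR-519a-2-5p. In miR-518c, miR-518e, miR-518f, miR-520d and miR-524 both arms were within a log2 of 1 of each other in the mean of each group. The mean turned from below 0 with RSL3 to above 0 with the combination in miR-518e (-0.49 and 0.30), miR-518f (-0.03 and 0.31) and miR-524 (-0.90 and 0.38), and none of these was called.

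The 3p arm gained most in miR-524, whose log2 ratios were -0.38, -0.11 and -2.20 with RSL3 and -0.45, 0.49 and 1.09 with the combination (difference 1.27, SE 0.627, limma adjusted p = 0.302). In miR-518e they were -0.89, 0.08 and -0.67 against 0.21, 0.21 and 0.47, with no overlap (difference 0.79, SE 0.381, limma adjusted p = 0.297). In miR-519a the ratio moved the other way, from -3.72, -3.68 and -3.28 to -4.36, -4.20 and -4.56, also with no overlap (difference -0.82, SE 0.342, limma adjusted p = 0.253). The 5p entries of miR-518e and miR-519a have the sequence shared by 6 entries, so these ratios may set a 3p arm against reads of other hairpins. Reads of other hairpins may also enter the ratio of miR-520g, whose 3p arm contains miR-520h. The same holds for miR-518a, whose 5p reads equal those of miR-527 in every library but RSL3 replicate 3. The differences of the 8 hairpins other than miR-524, miR-518e and miR-519a ran from -0.18 to 0.73. The lowest, that of miR-518a, was the least certain (SE 1.34), at -1.38 by the edgeR interaction and between -1.997 and 0.30 with 1 library left out, since its 5p arm had 0 to 43 reads.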

How the data were processed

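Small RNA of 6 libraries, 3 per treatment by the sample labels, was analysed. The deposited table holds raw read counts per mature miRNA, a normalized signal (counts that the authors divided by a total that was smaller than the table's own sum, which was 1.03 to 1.16 times as large), and the authors' log2 fold change, linear fold ratio and p-value, which were not used. Tools named in the processing notes of the submitters are Bowtie 1.1.1, bcl2fastq and edgeR, and the build is GRCh38. Not given in the sources used here are the miRBase release and the rule for multi-mapping reads.

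The test was that of edgeR 4.0.16 in R 4.3.3 on the raw counts (quasi-likelihood, two-sided, TMM, minimum count 10 and total 15), which kept 758 of 1596 entries, with Benjamini-Hochberg adjustment over all 758. Arm ratios, log2 of 3p over 5p reads with 0.5 added to each, were tested with limma 3.58.1 over hairpins with at least 10 reads of each arm on average and no entry sharing all its counts. DESeq2 1.42.0 was an alternative. The scripts were tested on simulated data. Counts set the precision, and at 3 libraries against 3 the smallest exact permutation p is 0.1, so no such test was used.

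Libraries with the same number deviated from the means of their groups together. Their correlations across miRNAs were 0.233, 0.221 and 0.211, all above the bound of 0.1. Correlations of libraries with different numbers were not computed. The replicate number of the titles was taken as pairing the libraries. Values are nevertheless from the fit without the block unless the block is named. The block is given where it changed a call and for a few other members. What the replicate numbers stand for is not given in the labels or the paper.

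Members and lists were chosen with earlier results of these data known. Named in full are members called with or without the block, miR-371 to miR-373, the 12 most abundant, the 4 largest increases and decreases, and both arms of the member hairpins tested. Alternatives covered scaling, filter, test, equal entries, GC content, block and leaving out each library. Sequences and places are from RefSeq (GRCh38.p14), which matched 1425 of the 1596 entries.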

Additional observations from a re-analysis of the deposited data

How the results depend on the processing

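Members called lower numbered 1 in the edgeR test, 2 with the replicate block, 3 without a filter, 3 with DESeq2 and 0 with a mean of at least 10 CPM, a filter that leaves out miR-372-3p. Without a filter 1 member, miR-527, was called higher, on 2, 3 and 3 reads against 8, 43 and 0. Most of these came from combined replicate 2. They equal the reads of miR-518a-5p in every library but RSL3 replicate 3 (3 against 4), so they may not stand for a separate member. No member was called higher otherwise. Leaving out 1 library gave 0 to 3 lower, 0 of them without RSL3 replicate 1, combined replicate 2 or combined replicate 3 and 3 without combined replicate 1. The median log2 fold change of the members was 0.10 when scaled by library totals, -0.36 by upper-quartile factors, and -0.43 to -0.25 with 1 library left out. The summed level, -0.15 on the log2 scale, was 0.22 as a share of the library total. The 31 named tested members gave 521 fold changes under the alternatives, of which 480 kept their sign and their side of the threshold, 7 passed only there (miR-515-5p and miR-498-5p) and 3 fell short only there (miR-372-3p with 1 library left out). The other 31, in 13 members none of which passed, turned sign, 10 of them with library totals. No arm ratio of a member was called under any alternative run, the replicate block among them. The block changed no other call than that of miR-515-5p. The cause of these changes was not tested. The filter left out 19 distinct members.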

Other observations

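The 4 members with the largest increases, miR-524-3p, miR-518e-3p, miR-520a-3p and miR-518a-3p, have the letters GCUUCCCUU in common, starting within the seed, a stretch found by comparing them after their values were seen. It stands in 6 distinct tested members, of which 5 had a log2 fold change above 0 (median 0.48), whereas 7 of the 36 matched members without it did (median -0.35). The other members with it were miR-520h (0.35) and miR-520g-3p (-0.28), which went opposite ways. As 4 of the 6 had served to find it, these counts are a description with no test. Members that differ from it by a single letter, among them miR-523-3p (-0.73) and miR-520d-3p (0.23), count as without it. The full stretch is held by 9 of the 1425 entries with a RefSeq sequence (0.632%), 8 of them members and the other miR-6762-3p.

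RSL3 replicate 2 was at least 1.5 times both other RSL3 libraries in 7 of the 44 distinct tested members (15.9%), beside 10.2% of all 758 tested entries. The 7 were miR-518a-3p, miR-518f-3p, miR-520a-3p, miR-520d-3p, miR-520d-5p, miR-520e-3p and miR-526a-3p. Without this library the log2 fold change of miR-520a-3p was 0.89 (edgeR quasi-likelihood adjusted p = 0.0977) and that of miR-518a-3p 0.78 (edgeR adjusted p = 0.0955), neither of which passed. Over the 7 it ran from -0.25 (miR-520e-3p) to 0.89, and none passed (edgeR adjusted p up to 0.811, for miR-518f-3p). Higher values without this library follow largely from how the 7 were picked. This look at the library was chosen after the values were seen.

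miR-518a-5p, left out by the filter and short of the threshold without it (edgeR quasi-likelihood adjusted p = 0.064), had 2, 3 and 4 reads with RSL3 and 8, 43 and 0 with the combination, most of the latter from combined replicate 2. The reads of miR-527 were the same but for 3 in RSL3 replicate 3. Both entries may therefore hold one set of reads, although they were counted as 2 distinct members.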
